A study of Mus musculus with 11 samples.

Results

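Cadherins and the factors of the epithelial-mesenchymal transition were measured in otospheres, in the cochlear sensory epithelium (CSE) they were grown from, and in embryonic stem cells (ESCs). The 10 genes were Cdh1, Epcam, Cdh2, Vim, Snai1, Snai2, Twist1, Twist2, Zeb1 and Zeb2, chosen by name from the 20284 genes that the array names here. They have 12 probes among the 55681 on the array besides controls, with 2 probes each for Cdh2 and Zeb2, of which the brighter is the main one. All 12 probes passed the filter on dim signals, so all 10 genes were tested.

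E-cadherin, encoded by Cdh1, joins neighbouring epithelial cells by binding the same molecule on the next cell, and Epcam is an adhesion molecule of epithelial surfaces. N-cadherin, encoded by Cdh2, does the same in nerve and mesenchyme, and it is also known from the sensory region of the cochlea, while vimentin (Vim) is an intermediate filament protein of mesenchymal and cultured cells. Snail, Slug, the Twist proteins and the Zeb proteins are transcription factors that bind short DNA motifs called E-boxes and are known as regulators of the transition, in which epithelial cells lose their junctions and take on mesenchymal features. Several of them are known to repress Cdh1.

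Otospheres are floating spheres grown from dissociated CSE in medium with bFGF and IGF1. The CSE came from ICR mice on postnatal day 1, with 20 cochleae pooled per preparation, and the otospheres were secondary spheres, cultured for 4 to 5 days before and again after 1 passage and then filtered to keep the small solid ones. The ESCs were of the lines G4-2 (ES1) and D3 (ES2), at passage 13, kept without feeder cells and with LIF, so that the ESC group is 1 sample from each of 2 lines. None of the labels gives a genetic change in any group. The CSE is a mixed tissue, and the otospheres and CSE are pools of animals whose overlap between samples is not stated.

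Single-colour arrays had been made for 6 otosphere (OS1 to OS6), 3 CSE and 2 ESC samples, on 2 slides, with ES1, OS1, OS2, OS3, CSE1 and CSE2 on the first slide and ES2, OS4, OS5, OS6 and CSE3 on the second. Over bright probes, the spread of the differences between OS4 and OS5 was 0.475 times that between spots of the same probe, and between OS1 and OS2 it was 1.08 times (0.969 to 1.14 times, depending on the brightness of the probes), while the other pairs within a group gave at least 1.95 times. Each of those pairs was therefore counted as 1 sample, which left 4 otosphere, 3 CSE and 2 ESC samples. ESCs had 1 sample on each slide, and CSE had 1 on the second, CSE3. A comparison within a slide that includes such a single sample takes its spread from the other groups there. The share of spots well above background was 55.1% to 71.6% per array, no spot was saturated, and the number of arrays limits the precision. The labels do not tie the samples of a group to separate preparations, and the study speaks of experimental batches of otospheres without naming them, so the p-values measure the spread between these samples, which may be technical. All values are log2 of the quantile-normalized signal intensity unless named otherwise, a difference is one of group means on that scale with its standard error (SE), and the adjusted p is that of limma over 47997 probes. Levels of different genes come from different probes and are not compared with each other.

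Of the ESC markers, 5 of 6 were lower in otospheres and in CSE than in ESCs, and the sixth, the probe mapped here to Nanog, was not higher in ESCs (8.26 and 8.50 against 8.82 to 10.75 in otospheres). The study itself lists Nanog among the genes upregulated only in ESCs, and whether that rests on the same probe is not known. Of the cochlear epithelium markers, 9 of 10 were higher in otospheres than in ESCs, with Sox2 lower (7.67 to 8.74 against 12.50 and 12.67), and 7 of 10 were lower in otospheres than in CSE. The otosphere sample OS6 stood apart from the other 3 for several of the genes below, so their values are also given without it.

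The start regions of the genes were read from a RefSeq table (build GRCm38.p6), from which 9 starts of 6 of the 10 genes were taken. Starts on 1 chromosome were left out, so the table may hold starts of other members. The 250 bases before the start are shown for Epcam and Twist2, which differed between otospheres and CSE in opposite directions, and for Snai1, which did not pass the test. Capitals mark the E-box CAGGTG, on either strand (CACCTG on the strand shown), which the Snail and Zeb proteins are known to bind.
Epcam, chr17:87635729-87635978, plus strand: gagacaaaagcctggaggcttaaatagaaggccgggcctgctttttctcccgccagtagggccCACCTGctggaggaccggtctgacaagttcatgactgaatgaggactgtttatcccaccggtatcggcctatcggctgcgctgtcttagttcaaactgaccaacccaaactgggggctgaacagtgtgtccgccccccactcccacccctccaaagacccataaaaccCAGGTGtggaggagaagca
Snai1, chr2:167537945-167538194, plus strand: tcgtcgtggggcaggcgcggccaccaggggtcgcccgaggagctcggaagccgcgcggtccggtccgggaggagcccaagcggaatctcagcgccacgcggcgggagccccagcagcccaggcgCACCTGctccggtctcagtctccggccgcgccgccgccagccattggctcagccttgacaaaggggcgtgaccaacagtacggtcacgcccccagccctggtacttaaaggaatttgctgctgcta
Twist2, chr1:91801211-91801460, plus strand: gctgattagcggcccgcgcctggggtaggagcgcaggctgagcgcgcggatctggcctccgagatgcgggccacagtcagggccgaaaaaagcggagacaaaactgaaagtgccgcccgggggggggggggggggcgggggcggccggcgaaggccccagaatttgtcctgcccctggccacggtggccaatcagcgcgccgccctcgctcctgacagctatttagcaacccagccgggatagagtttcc
The window of Epcam held 2 of these E-boxes, which began 187 and 19 bases before the start, and that of Snai1 held 1, which began 126 bases before it. None was found in the windows of Twist1, Twist2, Vim or any of the 4 starts of Zeb2. Of all 32851 windows in the table, 17.2% held the motif, and a match of letters does not show that a protein binds.

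Between otospheres and CSE, the epithelial adhesion genes Cdh1 and Epcam were higher in otospheres (2.32-fold and 1.85-fold) and Cdh2 and Twist2 were lower (5.82-fold and 8.87-fold). The value of Twist2 includes OS6, where its probe was not well above background, and without OS6 it was 5.33-fold. Thus 2 of the 10 genes passed the test as higher, where 4.84% of all probes tested did, and 2 as lower, where 6.19% did. Vim, Snai1, Snai2, Twist1, Zeb1 and Zeb2 did not pass the test, and for the transcription factors the otosphere samples were spread widely. The whole pattern is seen in the plot of the 10 genes by sample.

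**Figure D1:**
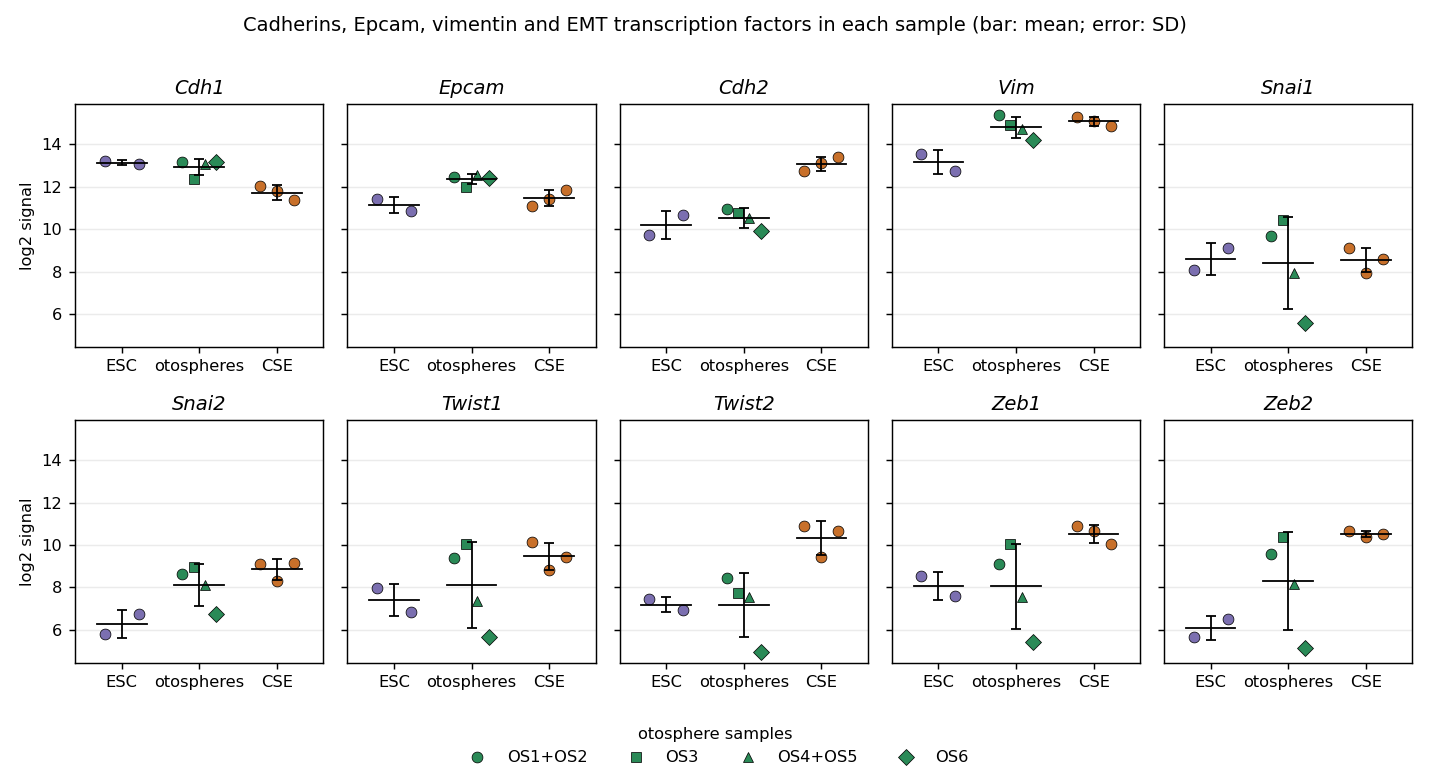
Each panel plots 1 gene's main probe as log2 signal (vertical axis) in the ESC, otosphere and CSE samples, with a bar for the mean and an error bar for the SD (n = 2, 4 and 3). Cdh1 and Epcam are tight in otospheres (12.38 to 13.17 and 11.99 to 12.55), Cdh2 is high in CSE only (12.74 to 13.38), and Snai1, Twist1, Zeb1 and Zeb2 run in otospheres from near 10 in OS3 to near 5.5 in OS6.

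Cdh1 was measured by a probe spotted 10 times on each array, and its spots on an array differed by an SD of 0.09 to 0.20. In ESCs it was at 13.21 and 13.07, in otospheres at 13.15 (OS1 and OS2), 12.38 (OS3), 13.05 (OS4 and OS5) and 13.17 (OS6), and in CSE at 12.02, 11.80 and 11.36. All otosphere samples lay above all CSE samples, and all but OS3 were close to the ESCs. The difference from CSE was 1.21 (SE 0.24, adjusted p = 0.014 by limma). Against ESCs it was -0.20 (SE 0.28, adjusted p = 0.646 by limma), which did not pass the test, while CSE minus ESCs was -1.42 (SE 0.29, adjusted p = 0.00621 by limma).

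The higher level of Cdh1 in otospheres was 0.85 within the first slide (adjusted p = 0.294 by limma, with 2 otosphere and 2 CSE samples there). Within the second slide it was 1.75, with CSE3, the lowest CSE sample, as the single CSE array. It was 1.03 without CSE3 (adjusted p = 0.0604 by limma) and 1.13 without OS6 (adjusted p = 0.036 by limma). The difference between CSE and ESCs was -1.30 and -1.71 within the slides, with 1 ESC array on each and 1 CSE array on the second. In the log2 table that the authors deposited, the Cdh1 probe has values of 1.12 to 1.32, and there the difference from CSE was 0.12 (adjusted p = 0.764 by limma) and that between CSE and ESCs -0.14 (adjusted p = 0.633 by limma). Probes spotted 10 times had in that table a median of 0.0994 times the log2 value computed here. With their values multiplied by 10, an alternative chosen after seeing the data, the difference of Cdh1 from CSE was 1.20 (adjusted p = 0.0307 by limma).

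Epcam was at 11.40 and 10.86 in ESCs, at 12.47 (OS1 and OS2), 11.99 (OS3), 12.55 (OS4 and OS5) and 12.42 (OS6) in otospheres, and at 11.11, 11.44 and 11.85 in CSE. Every otosphere sample was above every other sample, with OS3 just above CSE3. Against ESCs the difference was 1.22 (SE 0.27, adjusted p = 0.00849 by limma), and against CSE it was 0.89 (SE 0.24, adjusted p = 0.0447 by limma). ESCs and CSE differed by 0.34 (SE 0.28, adjusted p = 0.438 by limma). The difference from CSE lay just under the threshold and passed it in 10 of 24 alternatives, with 0.86 (adjusted p = 0.0596 by limma) when the slide was a block, 0.95 and 0.64 within the slides (adjusted p = 0.166 and 0.185 by limma) and 0.71 without CSE1 (adjusted p = 0.177 by limma). It was also lost without OS1 and OS2, OS4 and OS5, OS6 or CSE2 (0.82 to 0.88, adjusted p = 0.0959 to 0.123 by limma). The difference from ESCs was 0.95 without ES2 and 0.82 and 1.62 within the slides, with 1 ESC array in each case.

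Cdh2, lower in otospheres than in CSE, was the 1 of the 4 genes called in this comparison whose call held in every alternative tried. Its main probe was at 9.72 and 10.67 in ESCs, at 10.94 (OS1 and OS2), 10.78 (OS3), 10.52 (OS4 and OS5) and 9.89 (OS6) in otospheres, and at 12.74, 13.10 and 13.38 in CSE. CSE stood well above all other samples, and otospheres overlapped with ESCs. The difference of otospheres from CSE was -2.54 (SE 0.32, adjusted p = 0.00146 by limma), and it stayed past the threshold in all 24 alternatives, with values from -3.17 to -2.06 that include those within each slide. CSE was higher than ESCs by 2.88 (SE 0.38, adjusted p = 0.000616 by limma), and otospheres and ESCs differed by 0.34 (SE 0.36, adjusted p = 0.549 by limma).

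The other probe of Cdh2 gave the same order of groups, with 9.32 and 10.21 in ESCs, 9.33 to 10.29 in otospheres and 12.08, 12.27 and 13.05 in CSE. By that probe the difference of otospheres from CSE was -2.48 (SE 0.34, adjusted p = 0.00232 by limma). Cdh2 and Cdh1 thus passed the test in opposite directions between otospheres and CSE, and in opposite directions between CSE and ESCs.

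In RNA of whole samples, fewer cells of a type and less RNA per cell cannot be told apart. Several cell types of the dissected tissue had lower markers in otospheres: of the Schwann and satellite glia markers 8 of 11 were lower and 1 higher, of the neuronal markers 5 of 7 were lower, of the hair cell markers 4 of 7, of the endothelial markers 6 of 9, of the macrophage markers 6 of 8, of the melanocyte markers 2 of 5 and of the erythroid markers 5 of 7, where 6.19% of all probes were lower and 4.84% higher. The level of a list in a sample is the average deviation of its genes from their own means over the 9 samples, and for the glia markers it was -0.90 to 0.13 in otospheres and 1.47 to 1.91 in CSE. For the neuronal markers it was -2.14 to -1.75 and 1.33 to 2.56. For the cochlear epithelium markers, of which 7 of 10 were lower in otospheres, it was -0.22 to 0.93 and 2.78 to 2.91. Between otospheres and CSE these levels differed in the same direction as Cdh2. In ESCs, where Cdh2 overlapped with otospheres, the glia markers were at -1.49 and -1.45 and the neuronal markers at 0.50 and 1.01. The cochlear epithelium markers were at -4.69 and -4.78 there. The part of these cell types in the difference of Cdh2 was not tested.

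Vim was at 13.56 and 12.76 in ESCs, at 15.36 (OS1 and OS2), 14.91 (OS3), 14.73 (OS4 and OS5) and 14.20 (OS6) in otospheres, and at 15.29, 15.11 and 14.87 in CSE. Otospheres and CSE overlapped, with a difference of -0.29 (SE 0.30, adjusted p = 0.702 by limma), and both lay above ESCs. Otospheres were above ESCs by 1.64 (SE 0.34, adjusted p = 0.00618 by limma) and CSE by 1.93 (SE 0.36, adjusted p = 0.00352 by limma). Without ES2 the difference between otospheres and ESCs was 1.24, and within the slides it was 1.58 and 1.71, with 1 ESC array in each case.

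Against ESCs, 3 of the 10 genes were higher in otospheres (Epcam, Vim and Snai2), where 12.1% of all probes tested were, and 0 were lower, where 15.6% were. By the unadjusted p the same 3 were under 0.05 and none of the genes with a negative difference was. Between CSE and ESCs, 5 were higher in CSE (Cdh2, Vim, Snai2, Twist2 and Zeb2), where 13.2% of all probes tested were, and 1 was lower (Cdh1), where 15.6% were. In the F-test over the 3 groups 6 of 10 passed (Cdh1, Epcam, Cdh2, Vim, Snai2 and Twist2), where 33.8% of all probes did. The comparisons share their samples, so that the 3 counts are not independent of each other.

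**Figure D2:**
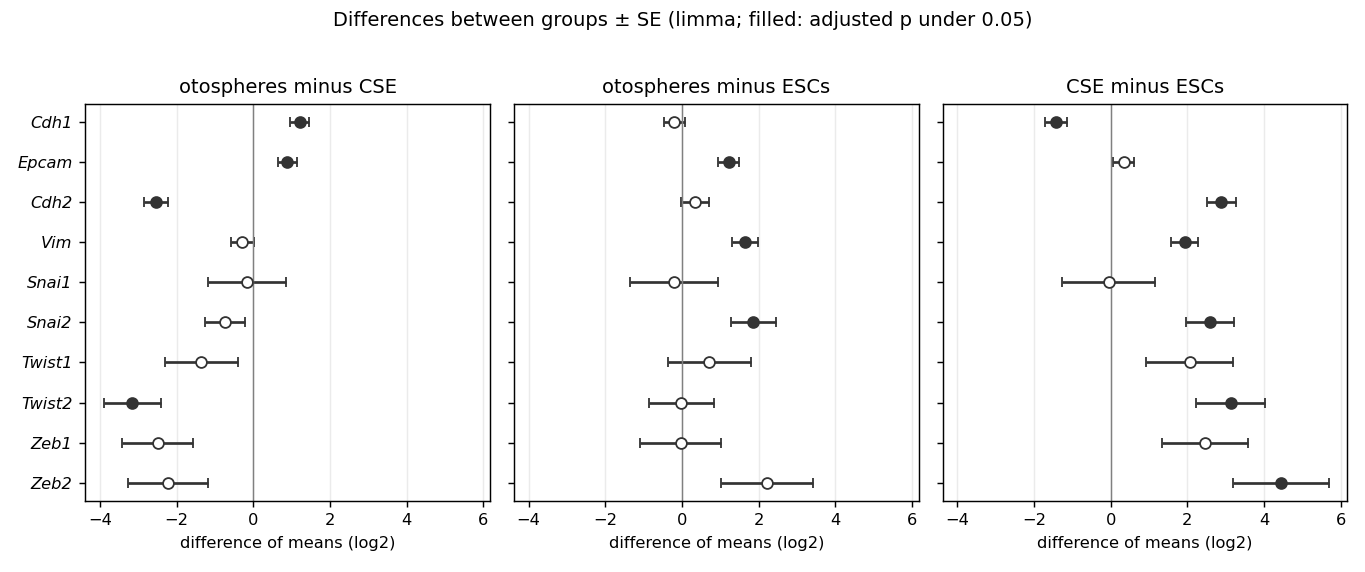
Points show the difference of group means of each gene on the log2 scale (horizontal axis) with its SE for the 3 comparisons, filled where the adjusted p of limma is under 0.05. The SE of Cdh1, Epcam, Cdh2 and Vim stays under 0.40, while that of Snai1, Twist1, Zeb1 and Zeb2 is near or above 1.

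Twist2, a basic helix-loop-helix factor known from dermal and other connective tissue cells, was the 1 factor among the 6 that passed the test between otospheres and CSE. It was at 7.44 and 6.95 in ESCs, at 8.46 (OS1 and OS2), 7.72 (OS3), 7.57 (OS4 and OS5) and 4.97 (OS6) in otospheres, and at 10.89, 9.44 and 10.66 in CSE. CSE lay above all other samples, and the probe was well above background on 5 of 6 otosphere arrays, all but OS6. The difference of otospheres from CSE was -3.15 (SE 0.75, adjusted p = 0.0288 by limma), and without OS6 it was -2.41 (adjusted p = 0.00985 by limma).

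For Twist2 the difference between otospheres and CSE was -2.08 within the first slide and -4.38 within the second (adjusted p = 0.148 and 0.0934 by limma). It was -3.28 without OS4 and OS5, -2.87 without CSE1 and -2.98 without CSE3 (adjusted p = 0.0605, 0.119 and 0.11 by limma). CSE was above ESCs by 3.13 (SE 0.90, adjusted p = 0.0285 by limma), a call that was lost without any one of ES1, ES2, CSE1 and CSE3 (adjusted p = 0.0803, 0.128, 0.0871 and 0.0788 by limma) and within the slides (2.72 and 3.71, adjusted p = 0.0567 and 0.109 by limma). Otospheres and ESCs differed by -0.02 (SE 0.85, adjusted p = 0.992 by limma), and without OS6 by 0.72 (adjusted p = 0.315 by limma).

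Zeb1, a zinc-finger factor known to repress epithelial genes, was at 8.55 and 7.61 in ESCs, at 9.12 (OS1 and OS2), 10.05 (OS3), 7.57 (OS4 and OS5) and 5.45 (OS6) in otospheres, and at 10.88, 10.65 and 10.07 in CSE. The otosphere samples were all under the CSE samples, but OS3 by very little, and OS6 was not well above background. The difference was -2.49 (SE 0.93, adjusted p = 0.147 by limma). It was -3.15 without OS3 (adjusted p = 0.0469 by limma) and -1.62 without OS6 (adjusted p = 0.16 by limma), and -1.18 and -3.56 within the slides (adjusted p = 0.197 and 0.0959 by limma). Otospheres and ESCs differed by -0.03 (SE 1.06, adjusted p = 0.987 by limma), and without OS6 by 0.83 (adjusted p = 0.421 by limma). CSE was above ESCs by 2.45, which did not pass the test (SE 1.12, adjusted p = 0.142 by limma). It did when OS6, whose spread enters the fit, was left out (adjusted p = 0.0257 by limma). Within the first slide, with 1 ESC array, the difference between CSE and ESCs was 2.21.

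Zeb2, its close relative, which is also known from neural crest and glia, was at 5.68 and 6.49 in ESCs, at 9.59 (OS1 and OS2), 10.37 (OS3), 8.14 (OS4 and OS5) and 5.13 (OS6) in otospheres, and at 10.68, 10.39 and 10.52 in CSE. The CSE samples were within 0.29 of each other, whereas the otosphere samples ranged over 5.24, from the level of CSE in OS3 to below ESCs in OS6, where neither probe was well above background. Against CSE the difference was -2.22 (SE 1.05, adjusted p = 0.263 by limma), with -0.55 and -3.89 within the slides (adjusted p = 0.554 and 0.154 by limma) and -1.16 without OS6 (adjusted p = 0.264 by limma). Against ESCs it was 2.22 (SE 1.19, adjusted p = 0.213 by limma) with OS6 and 3.28 (adjusted p = 0.00423 by limma) without it. Within the slides, each with 1 ESC array, it was 4.30 and 0.14. CSE was above ESCs by 4.44 (SE 1.25, adjusted p = 0.0268 by limma), a call that was lost without any one of ES1, ES2, CSE1, CSE2 and CSE3 (adjusted p = 0.0569 to 0.128 by limma) and within the second slide (4.03, adjusted p = 0.124 by limma).

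The other probe of Zeb2 was dimmer, with 4.73 and 4.97 in ESCs, 6.61, 7.03, 5.63 and 4.79 in otospheres and 7.14, 7.39 and 6.83 in CSE. It was not well above background in either ESC sample, so that CSE was at least 3.33-fold higher than ESCs by this probe (adjusted p = 0.0163 by limma). This bound sets the mean of CSE against the mean, over the ESC arrays, of the lowest signal that was well above background. Otospheres overlapped with both other groups and did not pass the test against ESCs (adjusted p = 0.154 by limma).

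Snai2, encoding Slug, which is known from neural crest and its derivatives, was at 5.80 and 6.73 in ESCs, at 8.65 (OS1 and OS2), 8.98 (OS3), 8.11 (OS4 and OS5) and 6.73 (OS6) in otospheres, and at 9.12, 8.28 and 9.17 in CSE. OS6 was at the level of ES2 and the other otosphere samples at or just below that of CSE. Otospheres were above ESCs by 1.86 (SE 0.59, adjusted p = 0.0461 by limma) and CSE by 2.59 (SE 0.63, adjusted p = 0.0132 by limma), and otospheres and CSE differed by -0.74 (SE 0.52, adjusted p = 0.515 by limma).

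The difference of Snai2 between otospheres and ESCs was 2.32 without OS6 (adjusted p = 0.00405 by limma), and 3.02 and 0.69 within the slides, each with 1 ESC array. It was no longer past the threshold in 13 of 24 alternatives, among them leaving out ES1 (1.39, adjusted p = 0.256 by limma), ES2, OS1 and OS2, OS3, OS4 and OS5 or any CSE sample (adjusted p = 0.0501 to 0.0949 by limma), and the slide as a block (1.86, adjusted p = 0.0569 by limma). The difference between CSE and ESCs was lost without ES1 (2.13, adjusted p = 0.094 by limma) and within the second slide (2.44, adjusted p = 0.0745 by limma).

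Snai1 and Twist1 passed the test in none of the 3 comparisons. Snai1, encoding Snail, was at 8.07 and 9.13 in ESCs, at 9.67 (OS1 and OS2), 10.44 (OS3), 7.93 (OS4 and OS5) and 5.56 (OS6) in otospheres, and at 9.10, 7.95 and 8.61 in CSE. The otosphere samples lay on both sides of the other groups, with the pair on the first slide above all CSE samples and the pair on the second below them, and in OS6 the probe was not well above background. The difference from CSE was -0.16 (SE 1.01, adjusted p = 0.971 by limma), with 1.53 and -1.87 within the slides (adjusted p = 0.209 and 0.339 by limma) and 0.79 without OS6 (adjusted p = 0.634 by limma). It was -0.20 between otospheres and ESCs (SE 1.15, adjusted p = 0.923 by limma), with 0.74 without OS6 (adjusted p = 0.51 by limma), and -0.05 between CSE and ESCs (SE 1.21, adjusted p = 0.985 by limma).

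Twist1, a helix-loop-helix factor of mesoderm and cranial mesenchyme, was at 7.95 and 6.86 in ESCs, at 9.39 (OS1 and OS2), 10.07 (OS3), 7.36 (OS4 and OS5) and 5.65 (OS6) in otospheres, and at 10.13, 8.83 and 9.44 in CSE. It was in the range of CSE in the otosphere samples of the first slide and below it in those of the second. The differences were -1.35 from CSE (SE 0.95, adjusted p = 0.513 by limma), 0.71 from ESCs (SE 1.08, adjusted p = 0.685 by limma; 1.54 and 0.199 without OS6) and 2.06 between CSE and ESCs (SE 1.14, adjusted p = 0.226 by limma). From CSE it was 0.25 and -2.93 within the slides (adjusted p = 0.938 and 0.0947 by limma) and -0.53 without OS6 (adjusted p = 0.825 by limma).

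The order of the otosphere samples was largely shared by the factors. OS6 had the lowest otosphere value for all 6 and for Cdh2 and Vim, whereas 23.9% of all kept probes were lowest in OS6. OS3 had the highest otosphere value for Snai1, Snai2, Twist1, Zeb1 and Zeb2, whereas 24.6% of all kept probes were highest in OS3, and 9.84% had both. The otosphere samples ranged over 4.88 for Snai1, 2.26 for Snai2, 4.41 for Twist1, 3.48 for Twist2 and 4.60 for Zeb1, against 0.80 to 1.45 in CSE. OS6 was at or near background for Snai1, Twist1, Twist2 and Zeb1. Over all kept probes the median range was 0.59 in otospheres and 0.47 in CSE. For Cdh1, Epcam, Cdh2 and Vim the otosphere samples ranged over 0.80, 0.56, 1.05 and 1.16.

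**Figure D3:**
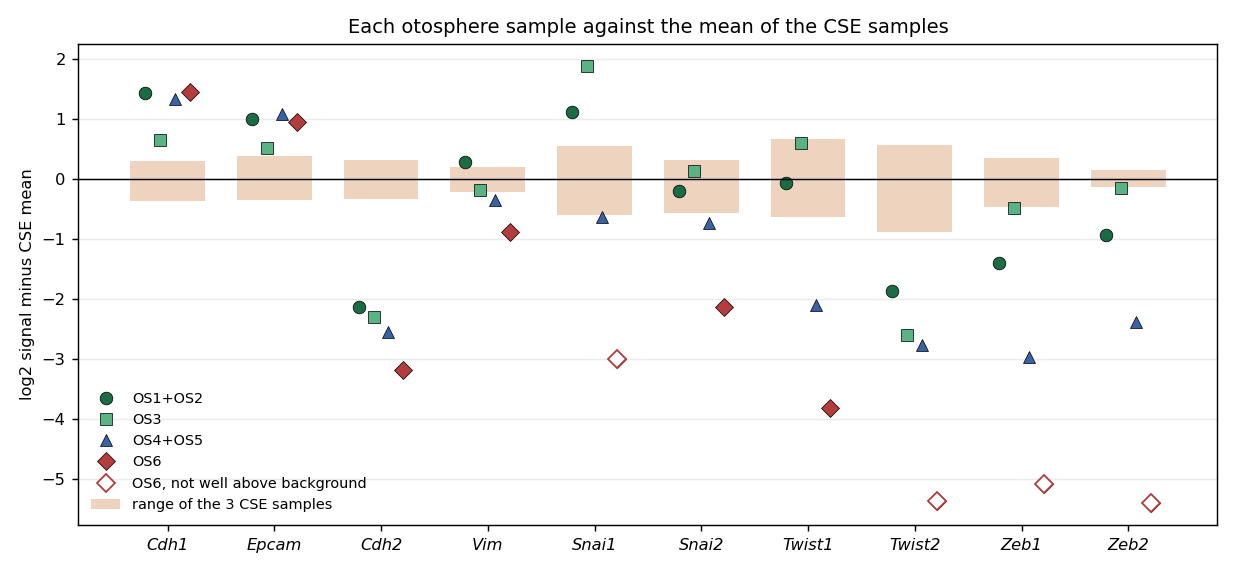
For each gene (horizontal axis) the points show each otosphere sample minus the mean of the 3 CSE samples in log2 units, and the bars span the CSE samples around their own mean. Cdh1 and Epcam lie above 0 and Cdh2 and Twist2 below it in all 4 otosphere samples, while OS6 lies below all CSE samples for the 6 transcription factors. Open diamonds mark Snai1, Twist2, Zeb1 and Zeb2 in OS6, which were not well above background there, so that their distance from CSE is only a lower limit.

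Measured from the mean of CSE, OS6 was at -2.13 for Snai2 and -3.81 for Twist1. The probe of Twist1 was well above background in OS6, but only 0.44 above the limit of the filter on dim signals. The main probes of Snai1, Twist2, Zeb1 and Zeb2 were not well above background in OS6, so that the mean of CSE was at least 8-fold, 36-fold, 33.9-fold and 41.4-fold above OS6, a single array. In OS3 the differences from the mean of CSE were 1.88 for Snai1, 0.13 for Snai2, 0.60 for Twist1, -2.61 for Twist2, -0.49 for Zeb1 and -0.16 for Zeb2. Only Twist2 was clearly below the CSE range in OS3, although OS3 was also the otosphere sample with the lowest Cdh1 (0.65 above CSE, against 1.32 to 1.45 in the other 3) and the lowest Epcam (0.52 above CSE, against 0.95 to 1.08).

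The samples of the second slide, OS4 and OS5 and OS6, were lower in the factors than those of the first. With the signal of OS6 as measured, the mean of the second slide minus that of the first in otospheres was -3.31 for Snai1, -1.40 for Snai2, -3.22 for Twist1, -1.82 for Twist2, -3.08 for Zeb1 and -3.34 for Zeb2. For the same genes it was 0.09, 0.47, -0.04, 0.49, -0.69 and -0.01 in CSE, with 1 CSE array on the second slide, and 1.06, 0.93, -1.09, -0.50, -0.94 and 0.82 in ESCs, where slide and cell line cannot be told apart. Cdh1, Epcam, Cdh2 and Vim shifted by 0.35, 0.25, -0.65 and -0.67 in otospheres. Marker lists also moved with this split: the hair cell markers were at 0.08 (OS4 and OS5) and 0.61 (OS6) against -0.92 (OS1 and OS2) and -1.51 (OS3), and the glia markers at -0.82 and -0.90 against 0.13 and -0.41. The part of the slide and of such cells in the shift of the factors was not tested.

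The 14 markers of otic mesenchyme and fibroblasts, some of which the lists below also hold, had as a list the same order of levels over the otosphere samples as Snai1, Snai2, Twist1, Zeb1 and Zeb2, and 8 of the 14 markers had that order singly. The level of the list was 1.66 in OS3, 1.25 in OS1 and OS2, 0.59 in OS4 and OS5 and -1.34 in OS6, against 1.40 to 1.85 in CSE and -3.66 to -3.25 in ESCs. In OS6 the collagen gene Col1a2 was at 8.61 (13.30 to 15.89 in the other otosphere samples), Pdgfrb, a receptor of mesenchymal cells, at 5.58 (10.18 to 11.92), and the transcription factor genes Tbx18 and Prrx1 at 5.47 and 5.05 (8.85 to 10.59 and 7.90 to 9.78). The 6 markers with another order were Dcn, Lum, Ogn, Postn, Prrx2 and Thy1. The matrix proteoglycan genes Lum and Dcn were at 15.05 and 15.51 in OS6, among 14.39 to 15.24 and 15.31 to 16.93 over all otosphere samples. Thy1, Prrx2 and Ogn were lower in OS3 (11.10, 13.53 and 11.27) than in OS6 (12.76, 14.30 and 11.48). Between otospheres and CSE 2 of these 14 markers were higher and 2 lower (4.84% and 6.19% of all probes). The part of such cells in the spread of the factors was not tested.

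The genes around the 10 were read as lists, counted between otospheres and CSE by the same test. Of 31 epithelial junction and surface genes 23 were higher in otospheres and 0 lower (median difference 1.97, against 0.02 over all probes tested, of which 4.84% were higher and 6.19% lower). Among the largest of them were the keratins Krt7 (5.71, adjusted p = 0.000238 by limma) and Krt8 (4.79, adjusted p = 0.00135 by limma) and the tight junction gene Cldn4 (3.87, adjusted p = 0.00087 by limma). Krt7 was at 12.84 to 15.02 in otospheres and at 8.15 to 8.46 in CSE. The count of 23 was 11 within the first slide, 14 without CSE1 and 15 without CSE2. Against ESCs 21 of the 31 were higher in otospheres and 0 lower.

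Of 15 regulators of the epithelial state 5 were higher in otospheres than in CSE and 0 lower, against 4.84% and 6.19% of all probes (median difference 0.85), with the transcription factor genes Elf3 (3.11) and Klf5 (2.34) and the splicing regulator genes Esrp2 (2.24) and Esrp1 (1.81) the largest. The count of 5 was 3 without OS1 and OS2, OS4 and OS5, CSE1 or CSE2. Against ESCs, 2 of the 15 were higher in otospheres (Elf5 and Ehf) and 2 lower (Grhl3 and Tfap2c), where 12.1% and 15.6% of all probes were. In CSE 1 was higher and 8 were lower than in ESCs, where 13.2% and 15.6% of all probes were, and among the lower ones were Esrp2, Elf3 and Klf5 (-1.50, -2.46 and -3.57).

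**Figure D4:**
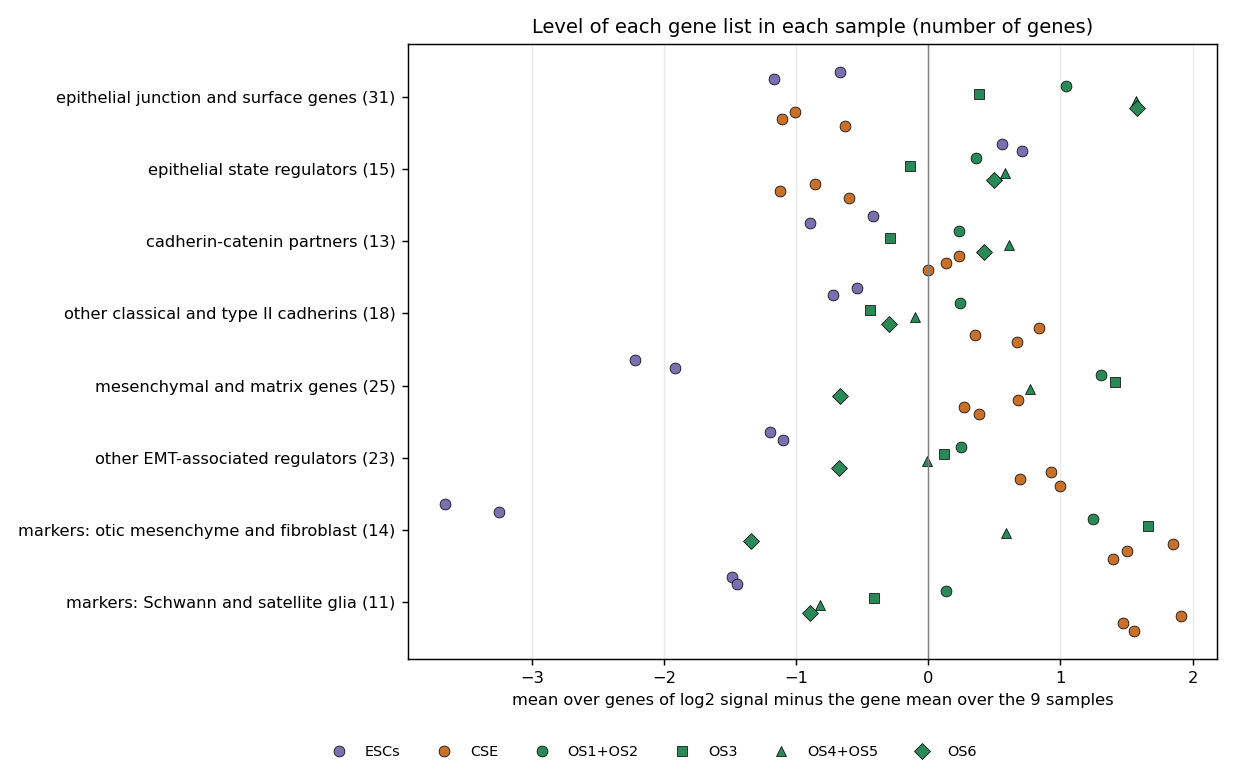
Each point is 1 sample's level of a gene list, the average deviation of its genes from their own means over the 9 samples in log2 units (horizontal axis), with lists in rows. Otospheres lie above CSE in the epithelial junction genes (0.38 to 1.58 against -1.11 to -0.63), and OS6 lies apart from the other otosphere samples in the mesenchymal genes (-0.67 against 0.77 to 1.41) and the mesenchyme markers (-1.34 against 0.59 to 1.66).

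Of 13 partners of cadherins, which link them to the cytoskeleton or act beside them at the junction, 4 were higher in otospheres than in CSE and 1 lower, against 4.84% and 6.19% of all probes (median difference -0.21). The 3 largest of the higher ones were p120-catenin, Ctnnd1 (1.61, adjusted p = 0.00253 by limma), Afdn (1.54, adjusted p = 0.0102 by limma) and Nectin2 (1.03, adjusted p = 0.0257 by limma). The lower one was Ctnna2, the alpha-catenin known from neurons (-2.15, adjusted p = 0.0294 by limma). The count of 4 was 2 without OS1 and OS2, OS4 and OS5, OS6, CSE1 or CSE2, and 0 within the first slide, and the call of Ctnna2 was lost without OS3, OS4 and OS5 or any one CSE sample. Of 18 other classical and type II cadherins 0 were higher and 4 lower, against 4.84% and 6.19% of all probes. The lower ones were Cdh4 (-2.96), the endothelial cadherin Cdh5 (-2.62), Cdh18 (-2.28) and Cdh22 (-1.91). Without any one of the CSE samples the count of lower ones was 2.

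Of 25 mesenchymal and matrix genes 8 were higher in otospheres than in CSE and 1 lower, against 4.84% and 6.19% of all probes (median difference -0.12). With so few genes, the share of lower ones cannot be told from that of all probes. The largest rises were those of the smooth muscle genes Tagln (6.23, adjusted p = 0.00445 by limma) and Acta2 (5.59, adjusted p = 0.0162 by limma) and of the surface gene Thy1 (3.12, adjusted p = 0.00709 by limma), and the lower one was the collagen gene Col1a1 (-4.01, adjusted p = 0.014 by limma). Between otospheres and ESCs the differences of Tagln, Acta2 and Thy1 were 2.2, 0.76 and 1.38. None passed that test (adjusted p = 0.192, 0.727 and 0.139 by limma). Acta2 was at 14.82 (OS4 and OS5) and 14.52 (OS6) on the second slide and at 11.58 and 9.65 on the first. It was at 6.96 to 7.11 in CSE and at 12.86 and 10.92 in ESCs. Thus Tagln, Acta2 and Thy1 were highest in OS4 and OS5 and in OS6, the samples with the lowest values of Zeb1, Zeb2 and Twist1. The list as a whole ran the other way. Its level was -0.67 in OS6 and 0.77 in OS4 and OS5, against 1.31 in OS1 and OS2 and 1.41 in OS3. The count of 8 was 5 without OS1 and OS2, OS4 and OS5 or CSE2, 4 without CSE1 and 3 without CSE3, and the call of Col1a1 was lost without CSE1 or CSE2.

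Of 23 other regulators associated with the transition 1 was higher in otospheres than in CSE and 6 were lower, against 4.84% and 6.19% of all probes (median difference -0.68). The share of higher ones was near that of all probes. The higher one was the homeobox gene Prrx2 (2.32, adjusted p = 0.00342 by limma), which was at 13.53 to 14.41 in otospheres and at 11.60 to 11.82 in CSE. Among the lower ones were Scrt1, a Snail-family gene known from neurons (-4.74, adjusted p = 8.7e-05 by limma), and the Id genes Id1 (-3.04), Id3 (-2.90) and Id2 (-2.51), whose products bind helix-loop-helix factors. Prrx1, by contrast, was at 5.05 in OS6 and at 7.90 to 9.78 in the other otosphere samples, against 9.48 to 10.05 in CSE (adjusted p = 0.413 by limma).

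The genes most like each of the 10 were sought by Pearson's r over the 9 samples among 14357 genes that ranged by at least 1, as a description without a test, since the samples fall into 3 groups on 2 slides and were normalized together. Cdh1 was most like Agfg1, Ccdc6 and Tmem144 (r = 0.99, 0.985 and 0.975), and Epcam most like Rab17, Cyba and Itgb4 (r = 0.968, 0.963 and 0.963). For Cdh2 the first 3 were Col14a1, Tmem200a and Rbpjl (r = 0.983, 0.982 and 0.976), and for Vim Col5a1, Adcy6 and Cldn34c1 (r = 0.983, 0.982 and 0.975). Zeb2 was most like Clmp, Col1a2 and Prrx1 (r = 0.991, 0.991 and 0.989), and Zeb1 most like Jam3, Fam126a and Rab3il1 (r = 0.985, 0.985 and 0.983). For Snai1 they were Dpy19l1, Crtap and Fbln1 (r = 0.969, 0.949 and 0.947), and for Snai2 Loxl3, Pdzrn4 and Gdf11 (r = 0.978, 0.977 and 0.974). Twist1 was most like Slc31a1, Vmn2r111 and Gpr182 (r = 0.976, 0.972 and 0.971), and Twist2 most like Wif1, Tmem151b and Shc2 (r = 0.974, 0.973 and 0.971).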

How the data were processed

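The authors hybridized Cy3-labelled RNA to single-colour Agilent arrays. The scanner files they deposited (Feature Extraction 10.7.3.1) give for every spot a median intensity, a median local background and a processed intensity, none of them normalized between arrays. The authors also deposited log2 values that they had corrected for background, quantile-normalized and filtered on signal. Here the median intensities were corrected for background by normexp with an offset of 16 (limma 3.58.1, R 4.3.3), converted to log2, quantile-normalized, and averaged over the spots of a probe without control and outlier spots. Probes entered the tests if, on 2 or more arrays, they exceeded the 95th percentile of the 308 negative controls by 10%. Names came from RefSeq accessions and covered 26762 of 55681 probes. Groups were compared by limma's moderated test (eBayes) and F-test, with Benjamini-Hochberg adjustment over 47997 probes and a threshold of 0.05, after a check on simulated data. The genes, lists and markers were chosen with earlier results of these data known. Up to 4 genes of each list are named, those with the largest difference between otospheres and CSE past the threshold, except 1 that is not reported here; Prrx2, Elf5, Ehf, Grhl3, Tfap2c and the markers named one by one were picked after their values were seen. Alternatives were the offset, the scaling, the deposited table, the filter, the arrays counted as samples, the slide, the replicate block, leaving out each sample, the unmoderated test and the choice of probe.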

Additional observations from a re-analysis of the deposited data

Results flagged for a closer look

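Among the otosphere samples, the Cdh1 value of OS3 (12.38, against 13.05 to 13.17 in the other 3) was far from the rest: its gap to the nearest of them was 0.843 of the range, above Dixon's critical value for 4 samples. It was the single such case in 28 groups of samples tested over the 10 genes and the gene lists, where chance gives about 1 in 20. OS3 also had the smallest share of spots well above background among the otosphere arrays (58.5%, against 61.5% to 68.2%). Its level of the epithelial junction and surface genes was the lowest of the otosphere samples (0.38, against 1.04 to 1.58). The part of the array in these values was not tested.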

How the results depend on the processing

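The counts of the 10 genes past the threshold were recomputed under 24 alternatives, of which 1 was chosen after seeing the data. Over the counts, single genes and lists no called value changed sign. With the processed signal scaled to the 75th percentile, 2 genes passed between otospheres and CSE, 1 between otospheres and ESCs, 3 between CSE and ESCs and 3 in the F-test (4, 3, 6 and 6 as reported); that scaling moved the median of all probes from -0.03 to -0.31 in otospheres and from -0.06 to -0.28 in CSE against ESCs, and the calls of Epcam, Vim and Zeb2 against ESCs and of Epcam and Twist2 against CSE were among those lost. Between otospheres and CSE, 2 passed in the authors' deposited log2 table (4 as reported), 1 within the first slide, 2 within the second and 2 by the test without moderation. Between CSE and ESCs 3 passed within the second slide. Leaving out 1 sample at a time gave 2 to 5 between otospheres and CSE (2 without OS4 and OS5, CSE1 or CSE3), 0 to 4 between otospheres and ESCs (0 in limma without ES2), 3 to 7 between CSE and ESCs (3 without ES1) and 4 to 8 in the F-test. Where a slide or leaving out a sample left 1 sample in a group, that sample was assumed to vary like the groups with more samples. Over all probes tested, the count between otospheres and CSE was 5294 and ran from 2384 within the first slide to 7958 with every array as a separate sample. The causes were not tested.

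Arrays of the same number were not treated as paired. Their deviations from the group means correlated by 0.356 for OS1 and CSE1, -0.34 for OS2 and CSE2 and -0.392 for OS3 and CSE3. OS1 and OS2 were almost alike and deviations within a group depend on each other, so these values cannot decide whether arrays were paired. With a replicate block 3 genes passed between otospheres and CSE, 4 between otospheres and ESCs, 8 between CSE and ESCs and 8 by F-test. OS4, OS5 and OS6 share their numbers with no other array, so they add nothing to these differences. For otospheres the differences rest on OS1, OS2 and OS3 of the first slide, with OS1 and OS2 counted apart. With every array as a separate sample but no block, 4, 3, 6 and 7 genes passed in the same comparisons.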
